A study of Homo sapiens with 6 samples.

Results

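Ribosome biogenesis factors of the nucleolus were examined in the established neuroblastoma line SK-N-BE(2), which the labels trace to bone marrow. Cells were given 1 µM NEN or the solvent DMSO for 24 h, with 3 libraries per group that the labels call biological replicates. The labels give NEN by its abbreviation alone, and published work on neuroblastoma uses that name for niclosamide ethanolamine, an uncoupler of mitochondria. The factors are 54 named genes of the 35130 gene names listed per library. They were chosen by symbol and sorted into 5 classes by the role of the protein. All 54 were listed, and all 54 were among the 12576 genes whose mean reached 1 TPM (transcript abundance scaled by length and library total), so the filter on low values removed none. The study covers 1 line, 1 dose and 1 time point, and nothing in the labels says how the replicate cultures were kept apart, so p-values measure the spread between these samples.

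Ribosomes are assembled in the nucleolus, where RNA polymerase I makes a long precursor that holds 18S, 5.8S and 28S rRNA. Small nucleolar ribonucleoproteins (snoRNPs) modify this precursor: box C/D particles methylate riboses and box H/ACA particles turn uridine into pseudouridine. A large complex, the small-subunit processome, folds and cleaves the 18S part, while a separate series of GTPases, helicases and scaffold proteins builds the large subunit. Factors of this kind are classical targets of MYC-family transcription factors, which bind the E-box CACGTG, and they are made in step with cell growth.

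Of the 54 factors, 27 fell and 2 rose after NEN, at an adjusted p of 0.05 in limma, and 25 did not pass. Among all genes tested, 16.5% fell and 13.5% rose by the same criterion, 30.0% in all. That background holds many genes of low level, whereas all factors had a DMSO mean of 15.1 TPM or more. With a minimum of 5 TPM, 2023 of 9832 genes fell and 1574 rose, beside 28 and 2 of the factors. The median difference between NEN and DMSO was -0.30 on the log2(TPM + 1) scale for the factors and -0.02 for all genes tested. Values of the 3 NEN libraries lay entirely below the 3 DMSO libraries for 33 factors and entirely above them for 2, against 25.0% and 21.8% of all genes tested (46.8% in either direction). The count of factors that fell ranged from 21 to 30 when any 1 library was left out, and the 2 that rose, NOB1 and GLTSCR2, rose in each of these fits. TPM are shares of a library, so fewer transcripts per cell and a change in the other RNA of the library cannot be told apart, and neither can fewer cells of one kind and less RNA per cell.

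**Figure D1:**
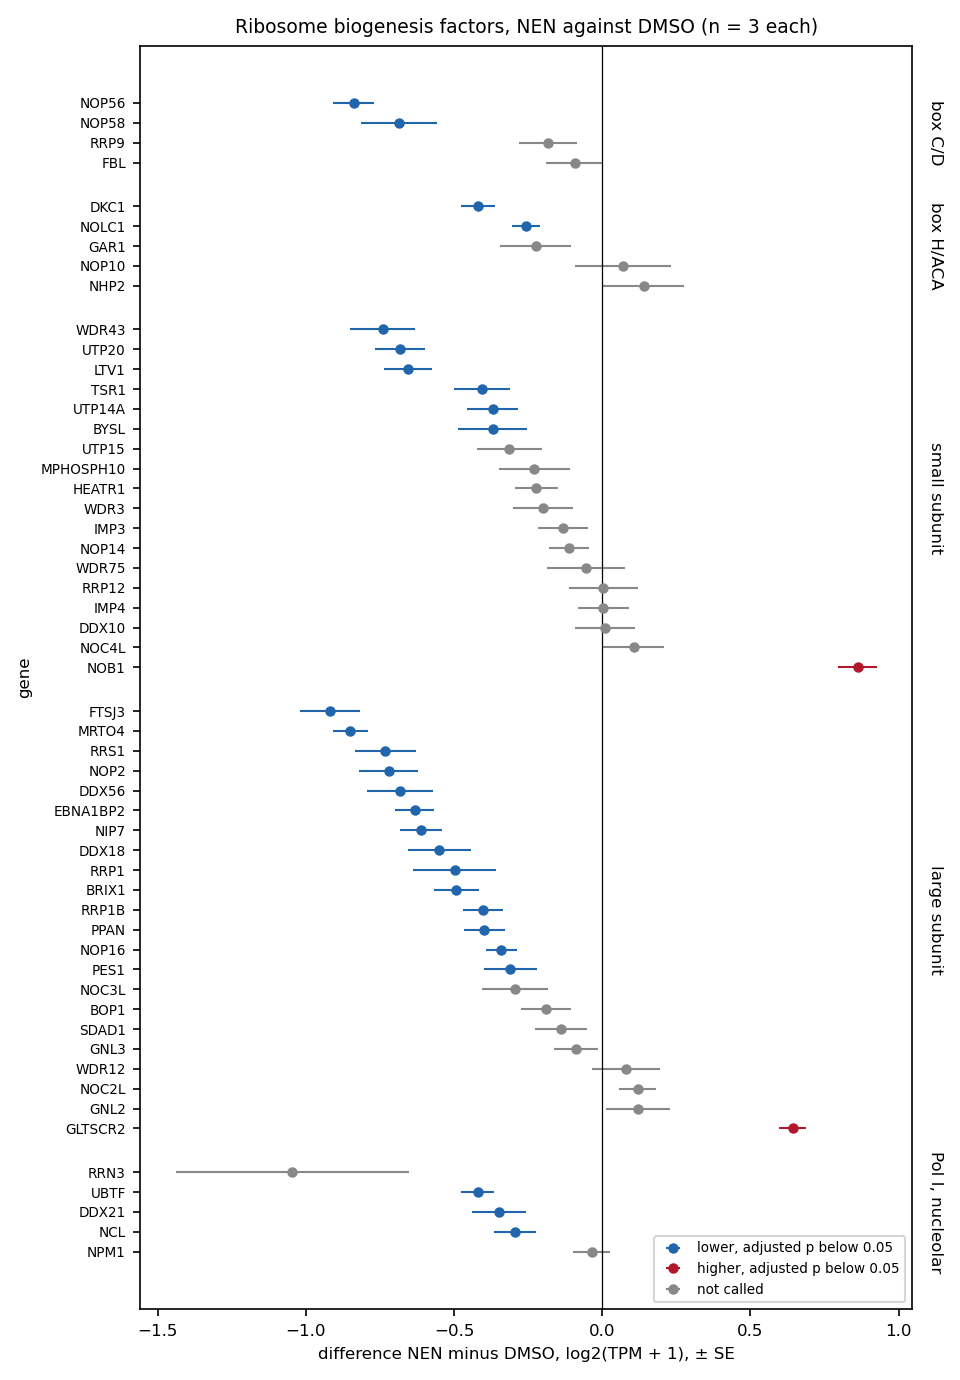
Difference between NEN and DMSO for each of the 54 factors on the log2(TPM + 1) scale (x axis), with the standard error as the bar and n = 3 libraries per group. Factors are grouped by class and coloured by call. The 27 that fell lie between -0.92 and -0.26, and NOB1 and GLTSCR2 stand apart on the right at 0.86 and 0.64.

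RefSeq start-site windows of build GRCh38.p14, which run from 250 bases before the start to 50 after it, were found for 46 of the 54 factors. Stretches of 8 are printed because some factors hold the E-box there and others do not. The letters CACGTG, which read the same on both strands, were in the window of 20 of these 46 factors (43.5%), against 12.9% of the genes tested and 8.77% of all symbols in the table. Of the 23 matches in windows of the factors, 18 (78.3%) lay within 50 bases of the start, against 38.6% of the matches in genes tested. Split by response, it was in 10 of 22 windows of factors that fell (45.5%) and in 10 of 22 of factors that were not called (45.5%), while the windows of NOB1 and GLTSCR2 had none. A match is a run of letters and not a measured binding site. The sequences below cover 90 bases before the start and the first 30 bases of the transcript, 5′ to 3′, with the E-box in capitals. MRTO4, WDR43 and UTP20 fell and hold it, FBL and RRP9 were not called and hold it, NOP56 fell without it, and NOB1 and GLTSCR2 rose without it.
MRTO4, chr1:19251715-19251834, plus strand: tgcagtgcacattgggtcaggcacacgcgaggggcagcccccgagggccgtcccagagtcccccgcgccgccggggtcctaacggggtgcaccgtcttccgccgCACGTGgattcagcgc
WDR43, chr2:28894577-28894696, plus strand: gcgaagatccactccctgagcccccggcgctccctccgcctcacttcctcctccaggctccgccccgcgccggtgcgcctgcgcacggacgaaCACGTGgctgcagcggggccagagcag
UTP20, chr12:101280015-101280134, plus strand: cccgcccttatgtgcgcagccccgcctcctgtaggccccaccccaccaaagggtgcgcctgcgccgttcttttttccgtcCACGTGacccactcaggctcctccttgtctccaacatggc
FBL, chr19:39846350-39846469, minus strand: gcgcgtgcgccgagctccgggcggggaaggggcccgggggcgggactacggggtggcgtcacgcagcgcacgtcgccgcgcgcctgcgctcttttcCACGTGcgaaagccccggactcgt
RRP9, chr3:51941875-51941994, minus strand: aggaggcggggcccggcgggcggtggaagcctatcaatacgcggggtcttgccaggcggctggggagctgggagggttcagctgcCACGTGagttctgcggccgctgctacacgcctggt
NOP56, chr20:2652542-2652661, plus strand: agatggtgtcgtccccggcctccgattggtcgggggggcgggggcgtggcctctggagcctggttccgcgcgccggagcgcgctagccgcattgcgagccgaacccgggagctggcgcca
NOB1, chr16:69754897-69755016, minus strand: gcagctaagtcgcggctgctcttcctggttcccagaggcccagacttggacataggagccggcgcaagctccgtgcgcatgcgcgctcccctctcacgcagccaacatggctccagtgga
GLTSCR2 (NOP53), chr19:47745456-47745575, plus strand: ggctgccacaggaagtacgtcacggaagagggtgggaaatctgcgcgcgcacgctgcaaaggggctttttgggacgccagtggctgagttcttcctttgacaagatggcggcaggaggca
The start base being 1, the E-box begins at position 15 in MRTO4, 4 in WDR43, -10 in UTP20, 7 in FBL and -5 in RRP9.

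The 4 box C/D proteins among the factors split into pairs: 2 fell (50%, against 16.5% of all genes tested) and 2 did not pass. NHP2L1, from a further list of snoRNP proteins outside the factors, was not called either (-0.12 ± 0.09, adjusted p = 0.317). NOP56 and NOP58, related proteins that form the core around the guide RNA, fell, whereas fibrillarin (FBL), the methyltransferase of the particle, and RRP9, a protein specific to the U3 particle, were not called. NOP56 had 164.0, 161 and 160.4 TPM in the DMSO libraries and 92.1, 96.0 and 82.2 TPM in the NEN libraries. All NEN values were far under all DMSO values, and the fall was 0.84 ± 0.07 (SE) on the log2 scale (adjusted p = 0.000441), to 55.8% of the DMSO mean. NOP58 had 155, 192 and 157 TPM against 122, 100.4 and 90.4 TPM, a fall of 0.69 ± 0.13 (adjusted p = 0.00744), with DMSO replicate 2 highest. FBL had 288, 239 and 225 TPM against 248, 223 and 231 TPM. The groups overlapped for FBL, with a difference of -0.09 ± 0.10 (adjusted p = 0.499). RRP9 had 46.6, 46.5 and 45.5 TPM against 45.4, 41.7 and 35.3 TPM (-0.18 ± 0.10, adjusted p = 0.201), where the groups did not overlap but NEN replicate 1 was close to DMSO. RRP9 passed as lower after a correction for transcript length and GC content (-0.34, adjusted p = 0.0283).

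The proportion of these transcripts to each other can be read directly, since TPM are corrected for length. NOP56 stood at 0.569, 0.671 and 0.713 of the FBL level in DMSO and at 0.372, 0.430 and 0.356 in NEN. The ratio was lower in each NEN library than in each DMSO library, with a mean of 0.651 ± 0.074 (SD, n = 3) against 0.386 ± 0.039 (two-sided exact permutation test, p = 0.1). With 3 libraries against 3 this test cannot go below 0.1. It was run on 4 ratios picked after their values were seen, and the adjusted p was 0.133 for the 3 ratios that did not overlap.

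In the box H/ACA class, the enzyme and the chaperone fell while the 3 small core proteins did not pass. Thus 40% of the class fell, against 16.5% of all genes tested. Dyskerin (DKC1), the pseudouridine synthase mutated in X-linked dyskeratosis congenita, had 143, 151 and 156 TPM in DMSO and 109, 110.1 and 116 TPM in NEN (fall of 0.42 ± 0.06, adjusted p = 0.00248). NOLC1, also known as Nopp140, which escorts snoRNPs to the nucleolus, had 278, 272 and 276 TPM against 236, 222 and 233 TPM (fall of 0.26 ± 0.05, adjusted p = 0.0075). Both groups were tight and separate for these genes. GAR1 had 61.9, 86.2 and 73.2 TPM against 62.9, 58.7 and 65.8 TPM (-0.23 ± 0.12, adjusted p = 0.195). NHP2 had 400.2, 542 and 604 TPM against 555, 554 and 569 TPM (0.14 ± 0.14, adjusted p = 0.483). NOP10 had 189, 292 and 295 TPM against 269, 269 and 262 TPM (0.07 ± 0.16, adjusted p = 0.780). In all 3 of these core genes DMSO replicate 1 was the lowest DMSO library. Without that library, GAR1 and NOP10 passed the threshold as lower (-0.34 and -0.14), the class count went from 2 to 4, and NHP2 stood at -0.03. The DKC1 level was 0.358, 0.278 and 0.258 of NHP2 in DMSO and 0.196, 0.199 and 0.204 in NEN (exact permutation p = 0.1, the smallest possible).

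Of 18 small-subunit factors, 6 fell (33.3%), 1 rose (5.6%) and 11 did not pass, with a median of -0.21. Called in either direction were 38.9% of the class and 30.0% of all genes tested, of which 16.5% fell and 13.5% rose. Among proteins of the early processome, WDR43, a subunit of the UtpA module, had 88.9, 96.8 and 93.0 TPM in DMSO and 55.7, 47.0 and 64.0 TPM in NEN (fall of 0.74 ± 0.11, adjusted p = 0.00329). UTP20, a very large scaffold protein, had 31.3, 31.3 and 28.04 TPM against 19.1, 18.4 and 17.8 TPM (fall of 0.68 ± 0.08, adjusted p = 0.00171). For both genes the groups were well apart. UTP14A, which activates a helicase of the complex, fell by 0.37 ± 0.09 (adjusted p = 0.0183), but did not pass once DMSO replicate 2 was removed (adjusted p = 0.0575). The other UtpA subunits among the 54 factors did not pass: UTP15 at -0.31 ± 0.11 (adjusted p = 0.0701), HEATR1 at -0.22 ± 0.07 (0.0539) and WDR75 at -0.06 ± 0.13 (0.785). HEATR1 and UTP15 had NEN values that were all below the DMSO values. The 3 proteins that bind the U3 RNA together, IMP3, IMP4 and MPHOSPH10, had -0.13, 0.00 and -0.23, with overlapping groups in each. WDR3 of the UtpB module had -0.20, the partners NOP14 and NOC4L had -0.11 and 0.11, and the helicase DDX10 had 0.01, none of them called.

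Factors of the cytoplasmic and late nuclear pre-40S particle went in opposite directions. NOB1, the endonuclease that makes the final cut at the 3′ end of 18S rRNA, had 50.05, 48.8 and 51.3 TPM in DMSO and 97.9, 88.2 and 89.3 TPM in NEN. The NEN values were at 183% of the DMSO mean and far from its range, with a rise of 0.86 ± 0.07 (adjusted p = 0.00034). LTV1, an assembly factor that leaves the particle before that cut, had 54.0, 54.8 and 48.5 TPM against 34.6, 31.0 and 33.2 TPM (fall of 0.65 ± 0.08, adjusted p = 0.00171). TSR1, which sits on the same particle, had 39.8, 39.2 and 38.2 TPM against 32.4, 25.9 and 29.7 TPM (fall of 0.40 ± 0.09, adjusted p = 0.0175, or 0.0528 without DMSO replicate 2). In DMSO the NOB1 and LTV1 levels were nearly equal, at ratios of 0.927, 0.889 and 1.06, whereas in NEN the ratios were 2.83, 2.85 and 2.68 (exact permutation p = 0.1). BYSL, needed for pre-40S export, had 37.7, 39.97 and 50.3 TPM against 31.6, 34.9 and 31.3 TPM. The BYSL fall of 0.37 ± 0.12 was at the edge of the threshold (adjusted p = 0.0498), and its call was lost in 11 of 15 other settings, among them the fits without DMSO replicate 2 (adjusted p = 0.0821), DMSO replicate 3 (0.0980) or any of the NEN libraries (0.0753 to 0.133). RRP12, an export factor, had 0.00 ± 0.12. Without DMSO replicate 2, 3 small-subunit factors in place of 6 passed as lower.

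**Figure D2:**
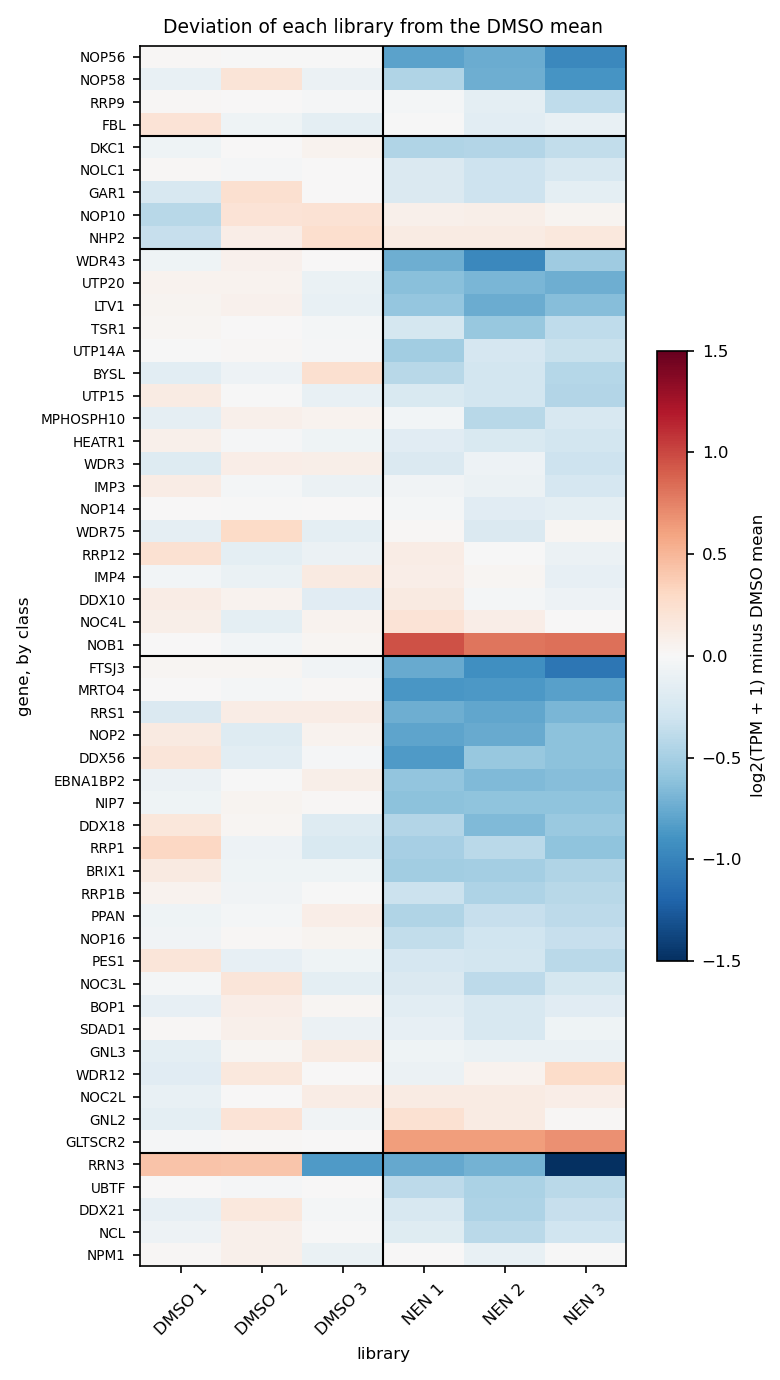
Deviation of each library (columns) from the DMSO mean of the same gene on the log2(TPM + 1) scale (colour), for all 54 factors (rows) in their 5 classes, separated by black lines. Blue cells fill most of the 3 NEN columns, the rows of NOB1 and GLTSCR2 are red there, and RRN3 is low in DMSO replicate 3 as well.

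Of 22 large-subunit factors, 14 fell (63.6%), 1 rose (4.5%) and 7 did not pass, with a median of -0.40. Of all genes tested, 16.5% fell and 13.5% rose. MRTO4, a relative of the stalk protein P0 that holds its place during assembly, had 76.0, 74.1 and 76.3 TPM in DMSO and 40.9, 40.9 and 42.4 TPM in NEN (fall of 0.85 ± 0.06, adjusted p = 0.000295). FTSJ3, an rRNA methyltransferase, had 36.2, 36.1 and 34.1 TPM against 20.6, 18.3 and 16.2 TPM, the lowest share of the DMSO mean among the factors that fell, at 51.8% (fall of 0.92 ± 0.10, adjusted p = 0.00117). All NEN libraries of both genes lay well under all DMSO libraries. EBNA1BP2, a nucleolar scaffold, had 112, 119 and 127 TPM against 78.5, 74.7 and 75.8 TPM (fall of 0.63 ± 0.06, adjusted p = 0.000906). NIP7, which acts in late precursor cleavage, had 35.1, 37.7 and 37.0 TPM against 23.5, 23.7 and 23.7 TPM (fall of 0.61 ± 0.07, adjusted p = 0.00137). The spread between NEN libraries was small for both.

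Further falls in this class covered enzymes and scaffolds. RRS1, which brings the 5S particle into the subunit, fell by 0.73 ± 0.10, NOP2, a cytosine methyltransferase of 28S rRNA, by 0.72 ± 0.10, and the helicases DDX56 and DDX18 by 0.68 ± 0.11 and 0.55 ± 0.11. BRIX1 fell by 0.49 ± 0.08 and NOP16 by 0.34 ± 0.05, with adjusted p-values of 0.00388 and 0.00374. The paralogs RRP1B and RRP1 fell by 0.40 ± 0.07 and 0.50 ± 0.14. RRP1 (adjusted p = 0.0344) no longer passed when DMSO replicate 2 (0.0693) or any NEN library (0.0624 to 0.103) was removed. PPAN fell by 0.40 ± 0.07. The read-through row PPAN-P2RY11, which shares exons with PPAN, was listed separately at 8.03 ± 0.97 TPM in DMSO and 7.79 ± 0.74 TPM in NEN (SD, n = 3), so how reads were split between the 2 rows is uncertain.

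The 3 proteins of the PeBoW complex, which is needed for 28S and 5.8S processing, were measured as follows. PES1 had 175, 141 and 147 TPM in DMSO and 129, 127 and 116 TPM in NEN, a fall of 0.31 ± 0.09 (adjusted p = 0.0374). BOP1 had 34.1, 40.1 and 38.1 TPM against 33.4, 31.4 and 33.0 TPM (-0.19 ± 0.08, adjusted p = 0.128), so that its groups did not overlap, with NEN lower. WDR12 had 142, 179 and 161 TPM against 151, 165 and 194 TPM, with overlapping groups (0.08 ± 0.11, adjusted p = 0.636). The PES1 to WDR12 ratio overlapped between the groups, at 0.980 ± 0.228 in DMSO and 0.741 ± 0.131 in NEN (SD, n = 3, exact permutation p = 0.2). PES1 no longer passed when DMSO replicate 3 (adjusted p = 0.0628) or any NEN library (0.0711 to 0.117) was removed, nor after median-ratio (0.0625) or quantile scaling (0.0823), and its call was lost in 8 of 15 other settings. BOP1 passed as lower after a correction for transcript length and GC content (-0.46, adjusted p = 0.00311).

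GLTSCR2, now called NOP53, which guides the exosome to the 5.8S precursor and binds p53-pathway proteins, was the single one of these 22 large-subunit factors that rose. It had 298, 306 and 303 TPM in DMSO and 467, 466 and 485 TPM in NEN, a rise of 0.64 ± 0.05 (adjusted p = 0.000323), to 156% of the DMSO mean. The groups were tight and far apart. The GTPases GNL2 and GNL3 (nucleostemin) had 0.12 ± 0.11 and -0.09 ± 0.08, and NOC2L, which also binds histone tails, had 0.12 ± 0.06. NOC3L had -0.29 ± 0.11 and SDAD1 -0.14 ± 0.09. None of these 5 was called, with adjusted p-values from 0.0854 to 0.433.

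**Figure D3:**
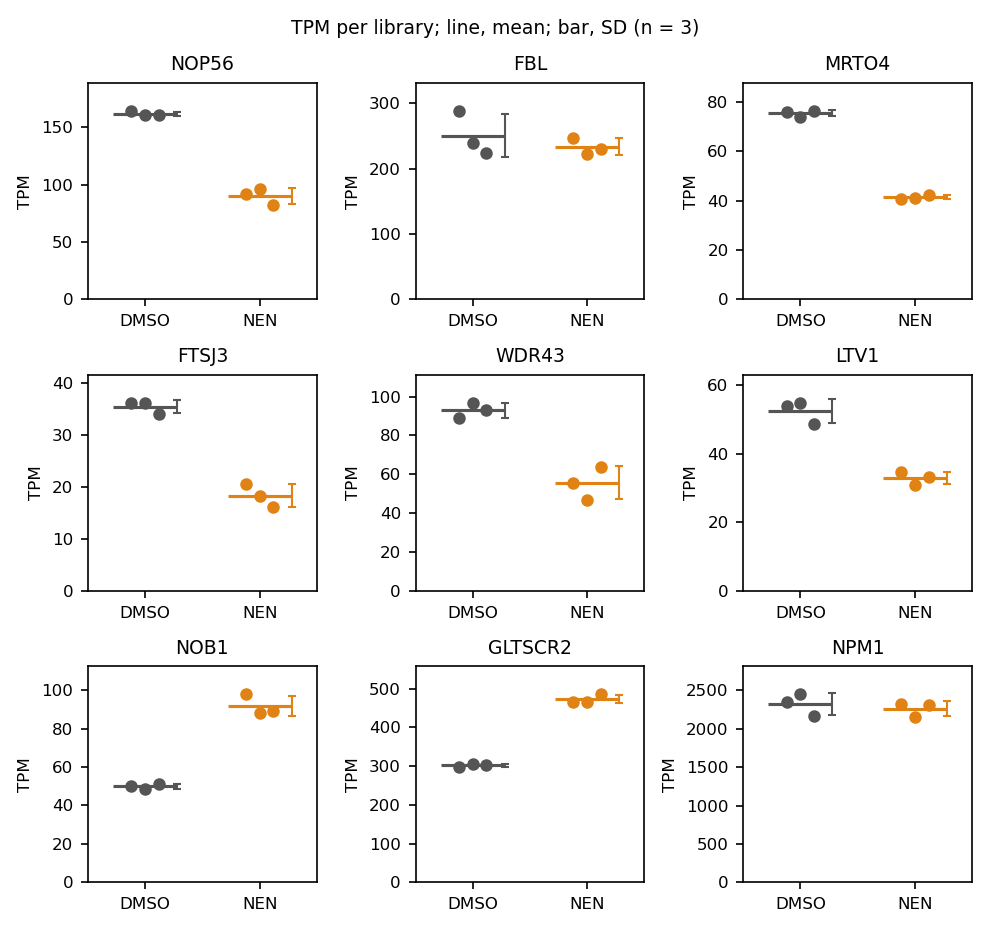
TPM (y axis, from 0) in each of the 3 DMSO and 3 NEN libraries (points) for 9 factors, with the mean as a line and the SD as a bar. NOP56, MRTO4, FTSJ3, WDR43 and LTV1 are lower in each NEN library, NOB1 and GLTSCR2 are higher in each, and the groups overlap for FBL and NPM1.

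Of the factors that act with RNA polymerase I, UBTF fell and RRN3 did not pass. UBTF, which bends rDNA and holds it in an active state, had 94.5, 92.9 and 94.2 TPM in DMSO and 71.5, 67.4 and 70.9 TPM in NEN (fall of 0.42 ± 0.06, adjusted p = 0.00213). RRN3, or TIF-IA, which joins the polymerase to its promoter and responds to nutrient signals, had 34.4, 34.0 and 13.6 TPM against 14.4, 15.1 and 7.31 TPM. DMSO replicate 3 lay within the NEN range of RRN3, and the difference was -1.05 ± 0.39 (adjusted p = 0.0854). Without that library it was -1.47 (adjusted p = 0.0173), while without any other single library it did not pass, with a difference as small as -0.74 and an adjusted p of up to 0.225. The near-identical pseudogene rows RRN3P1 and RRN3P3 were listed at 3.65 ± 1.29 and 2.48 ± 0.70 TPM in DMSO and 3.25 ± 0.52 and 2.82 ± 0.90 TPM in NEN (SD, n = 3), so how reads were split among these copies is uncertain.

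Of the abundant nucleolar proteins, 2 fell and 1 did not pass. With UBTF and RRN3 they form a class of 5, of which 60% fell, against 16.5% of all genes tested. Nucleolin (NCL), which packages nascent rRNA, had 1818, 2009 and 1908 TPM in DMSO and 1682, 1438 and 1556 TPM in NEN (fall of 0.30 ± 0.07, adjusted p = 0.0192). Nucleophosmin (NPM1), a histone chaperone that gives the outer nucleolus its liquid character, had 2342, 2448 and 2172 TPM against 2320.5, 2153 and 2311 TPM (-0.04 ± 0.06, adjusted p = 0.694). The 2 groups overlapped for NPM1 and not for NCL. Over 15 other settings of the fit the NPM1 difference ranged from -0.18 to 0.05, and it passed in none (smallest adjusted p in limma 0.0543). All 45 NPM1 pseudogene rows together reached at most 3.06 TPM in a library. DDX21, a helicase that links Pol I transcription with rRNA processing, had 152, 186 and 162 TPM against 141, 121 and 130.5 TPM (fall of 0.35 ± 0.09, adjusted p = 0.0254). Neither NCL nor DDX21 passed when DMSO replicate 2 (adjusted p = 0.0710 and 0.0682), DMSO replicate 3 (0.0540 and 0.0554), NEN replicate 2 (0.0611 and 0.0821) or NEN replicate 3 (0.0607 and 0.0703) was removed, which took the class count from 3 to as few as 1.

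Levels differed widely between the factors. NPM1 (2321 ± 139.6 TPM) and NCL (1912 ± 95.9 TPM) led in DMSO, followed by NHP2 (515 ± 104 TPM), GLTSCR2 (302 ± 4.2 TPM) and NOLC1 (275 ± 3.0 TPM), while UTP15 (15.1 ± 1.3 TPM) was lowest (SD, n = 3). The 54 factors together made up 0.983%, 1.05% and 1.01% of the listed TPM in DMSO and 0.943%, 0.884% and 0.919% in NEN. Between 43.4% and 45.7% of that sum in each library came from NCL and NPM1. Every NEN library lay below the DMSO mean over the factors. The median deviation of the factors was -0.22, -0.30 and -0.34 in NEN replicates 1 to 3, against 0.00, -0.05 and -0.03 over all genes tested. In the DMSO libraries the median of the factors was 0.00, 0.02 and -0.00. These lie near 0 by construction, since the deviations are taken from the mean of the same libraries. The numbers of factors under their DMSO mean were 42, 45 and 45 of 54 in NEN replicates 1 to 3 and 26, 22 and 28 in DMSO replicates 1 to 3.

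**Figure D4:**
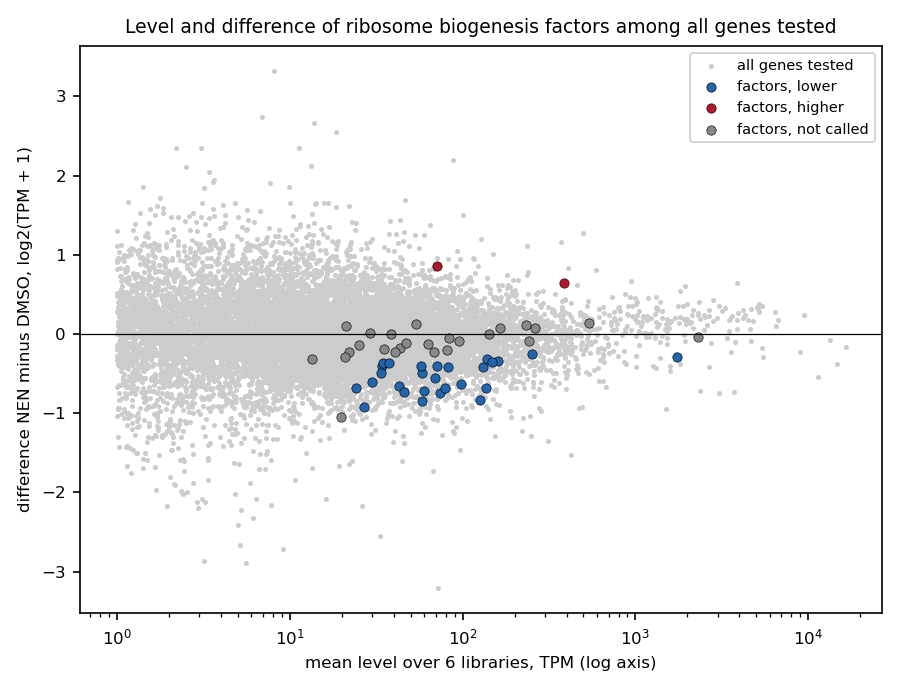
Difference between NEN and DMSO on the log2(TPM + 1) scale (y axis) against the mean TPM over 6 libraries (x axis, log scale) for 12576 genes (grey) and the 54 factors (coloured by call). The factors that fell are spread over a wide range of levels, up to that of NCL.

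Several factors also carry snoRNA genes within their bounds. Where such a gene lies in an intron, one transcript can give both a ribosome assembly protein and guide RNAs. Whether the snoRNA genes lie in introns was not checked here. In the GENCODE release 29 annotation, 9 of the 54 factors (16.7%) contained snoRNA genes on the same strand, against 1.76% of 11662 matched genes tested. Of these 9 hosts, 7 fell (NOP56, NOP58, NCL, DKC1, WDR43, PPAN and TSR1), GLTSCR2 rose and GNL3 was not called. Of the 205 host genes among all genes tested, 50 fell and 33 rose. NOP56 holds 4 box C/D genes (SNORD56, SNORD57, SNORD86 and SNORD110) and 1 box H/ACA gene (SNORA51). DKC1 holds SNORA36A and SNORA56, and GLTSCR2 holds SNORD23. Levels of the snoRNAs themselves were not analysed here.

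Ribosome biogenesis genes outside the 54 factors were taken from 5 further lists. Of their 124 symbols, 123 were tested, of which 42 (34.1%) fell and 6 (4.9%) rose, against 16.5% and 13.5% of all genes tested. The median of the 123 genes was -0.25. Among small-subunit factors of these lists, RRP36 fell from 92.8 ± 11.9 to 48.7 ± 4.1 TPM, KRR1 by 0.78 ± 0.08 and NOL11 by 0.69 ± 0.08. NOL11 and CIRH1A, which fell by 0.43 ± 0.06, are UtpA subunits too. Among large-subunit factors, URB2 fell by 1.01 ± 0.08 (adjusted p = 0.000401), NOL12 by 0.70 ± 0.09 and NVL, an ATPase, by 0.56 ± 0.08. In the same list DDX54, a helicase, rose by 0.57 ± 0.11 (adjusted p = 0.00828), ZNF593 by 0.20 ± 0.05 and RSL24D1 by 0.26 ± 0.08. Subunits of RNA polymerase I went both ways. CD3EAP, POLR1A and TWISTNB fell by 0.98 ± 0.13, 0.46 ± 0.08 and 0.47 ± 0.12, whereas POLR1D and ZNRD1 rose by 0.47 ± 0.05 and 0.85 ± 0.14. POLR1B, POLR1C and POLR1E were not called. TAF1C of the same list fell by 0.49 ± 0.10. The exosome subunits EXOSC9, EXOSC2 and EXOSC8 fell by 0.68 ± 0.08, 0.59 ± 0.10 and 0.43 ± 0.07. Of the snoRNP assembly proteins, PIH1D1 and TGS1 fell by 0.23 ± 0.06 and 0.34 ± 0.10 and the helicase RUVBL2 rose by 0.24 ± 0.05. Without NEN replicate 2, 27 in place of 42 of these genes passed as lower.

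The factors assemble ribosomal proteins into subunits, and the genes of these proteins form a separate list. Of 71 cytosolic ribosomal protein genes 29 rose (40.8%) and 1 fell (1.4%), against 13.5% and 16.5% of all genes tested. The median of the ribosomal protein genes was 0.20, but after quantile normalization 7 of them rose. Leaving out NEN replicate 1, 2 or 3 gave 15, 14 and 13 that rose, and leaving out DMSO replicate 2 gave 14. No test was made of the difference between the ribosomal protein genes and the factors.

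**Figure D5:**
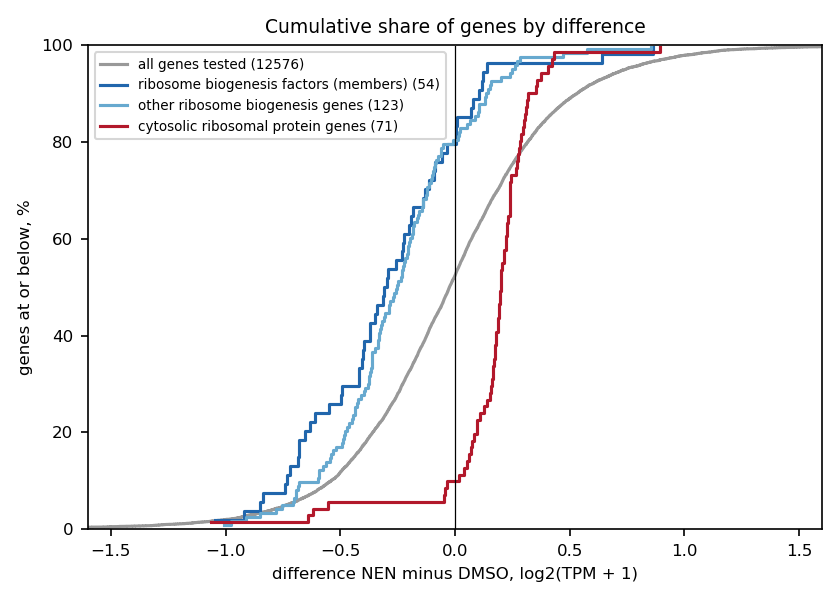
Cumulative share of genes (y axis, %) by the difference between NEN and DMSO on the log2(TPM + 1) scale (x axis), for all genes tested, the 54 factors, 123 other ribosome biogenesis genes and 71 cytosolic ribosomal protein genes. The medians are -0.02, -0.30, -0.25 and 0.20 in that order.

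Markers of the labelled cell type were present. All 10 adrenergic neuroblastoma markers were listed at 7.04 TPM or more in every library, and their sum was 5259 to 6054 TPM in DMSO and 6219 to 6430 TPM in NEN, with 6 of 10 higher. The 6 leukocyte markers summed to at most 1.81 TPM, with CD3E and HBB at 0 in every library. Fibroblast and endothelial markers summed to 8.03 to 10.2 TPM in DMSO and 3.63 to 12.1 TPM in NEN, and epithelial markers to 3.59 to 6.16 and 2.82 to 6.10 TPM, with KRT5 and KRT14 at 0 throughout. TPM hold no read counts, so the depth of each library is unknown, and the listed TPM summed to between 929054 and 933500.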

How the data were processed

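RNA-seq of 6 libraries was used, 3 from cells given DMSO and 3 from cells given NEN, grouped by the treatment in the labels. Per the submitters' processing notes, kallisto quantified the reads and the build was hg19. The sources used here give neither tool versions nor how transcripts were summed to genes, and the library protocol in the labels names both polyA capture and rRNA removal. The values the authors deposited are TPM, which correct for transcript length and are relative to the library. They hold no read counts, and the depth of the libraries is therefore unknown.

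Where the mean reached 1 TPM, log2(TPM + 1) was fitted by group in limma 3.58.1 under R 4.3.3, with a mean-variance trend and robust variances. This scale understates changes of low genes. The two-sided p-values were adjusted by Benjamini and Hochberg's method across the 12576 genes, with a threshold of 0.05. The factors, their classes, the other lists and the tests were chosen with earlier results of these data known. Values per library are given for the 5 factors of each class with the smallest adjusted p, for those that rose, and for all of a class of 5 or fewer. Those of BYSL, PES1, BOP1 and WDR12 were added after their values were seen. From each of the 5 other ribosome biogenesis lists, the 3 genes with the smallest adjusted p are named. Ribosomal protein genes are given by count and median alone. CIRH1A, DDX54, ZNF593, RSL24D1, POLR1A, POLR1B, POLR1C, POLR1E, TWISTNB, TAF1C and NHP2L1 were added after their values were seen. None of 12 noncoding snoRNA host genes looked for was matched.

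The labels do not say that a replicate number marks a shared day or batch, so the numbers were not used as pairs. Taken over all genes, deviations of same-numbered libraries showed little correlation, which does not cover single genes. The 15 other settings were a replicate block, each library left out, no filter, a minimum of 5 TPM, median-ratio and quantile scaling, pseudocounts of 0.1 and 5, plain limma settings, and, added after the data were seen, a loess correction (span 0.3, degree 1) for transcript length and GC content on 11860 genes. Promoter windows came from RefSeq (GRCh38.p14) and snoRNA hosts from GENCODE release 29, whose builds differ from hg19. Figures were drawn with matplotlib 3.10.9.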

Additional observations from a re-analysis of the deposited data

How the results depend on the processing

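Of the 27 factors that fell, 20 passed as lower in all 15 other settings, and NOB1 and GLTSCR2 passed as higher in all 15. BYSL, PES1, DDX21, NCL, RRP1, UTP14A and TSR1 lost their call in at least 1. Of the 25 not called, GAR1, WDR3, BOP1, RRP9, HEATR1 and RRN3 passed as lower in some setting, and 10 changed sign in some, of which NOP10 then passed as lower. The cause of these changes was not tested. The number of factors lower was 23 with no filter, 28 with a minimum of 5 TPM, 25 with median-ratio or quantile scaling, 27 and 26 with pseudocounts of 0.1 and 5, 22 with plain limma settings, 29 after the correction for length and GC content, and 21 to 30 when 1 library was left out. Depth is unknown, so what it limits cannot be stated.

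The sign turned after the length and GC correction for NPM1 (0.0537), WDR75 (0.0311), RRP12 (-0.0500), NOC4L (-0.11) and IMP4 (-0.12), and with quantile normalization for WDR75 (0.0267). When 1 library was left out, the difference ranged from -0.0833 to 0.00324 for NPM1, -0.168 to 0.0102 for FBL, -0.14 to 0.18 for NOP10, -0.0320 to 0.26 for NHP2, -0.0177 to 0.16 for WDR12, -0.13 to 0.0864 for WDR75, -0.0676 to 0.12 for RRP12, -0.0731 to 0.0665 for DDX10 and -0.0476 to 0.0735 for IMP4. The same fits gave 1402 to 1914 genes lower and 1063 to 1554 higher among all genes, the latter lowest without NEN replicate 1. They gave 3 to 7 small-subunit, 2 to 4 box H/ACA and 1 to 3 Pol I and abundant nucleolar factors lower, 27 to 40 of the other ribosome biogenesis genes lower, 0 to 2 ribosomal protein genes lower and 13 to 34 higher. With plain limma settings, 1 Pol I or abundant nucleolar factor was lower and 12 ribosomal protein genes were higher; quantile normalization gave 7.

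With the replicate number as a block, 25 factors were lower and 2 higher, and 2 ribosomal protein genes were lower. NCL, DDX21 and BYSL lost their call (adjusted p = 0.0543, 0.0663 and 0.0772 in limma) and RRN3 gained one (-1.05, adjusted p = 0.0083). The deviations of same-numbered DMSO and NEN libraries correlated at 0.0117, -0.00755 and -0.0278 across genes. A correlation over all genes cannot show whether same-numbered libraries shared a day or batch for some genes. The labels do not state what a number marks.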
